A study of Rattus norvegicus with 12 samples.

Results

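The pancreas of diabetic untreated rats (DU) was compared with that of healthy untreated rats (HU) on 6 of the 12 arrays of the series, 3 of each group, taken by their labels. DU animals had been made diabetic with streptozotocin (STZ), a toxin that enters beta cells through the glucose transporter Slc2a2, and were kept for 5 to 6 weeks with lasting hyperglycemia. HU animals carried no STZ diabetes and were kept for the same time with normal glycemia. The rats were adult male Wistar rats and neither group received tungstate, the agent given to the rats of the other 6 arrays. Whole pancreas RNA was measured, and each Affymetrix RAE230-A array held RNA pooled from 3 rats. The p-values therefore rest on the variation among pools, which may hide that among animals. The tissue is a mixture, mostly of acinar cells, in which islets are a small part.

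The healthy pancreas does both of its tasks by secretion. Acinar cells make amylase, lipases and the inactive precursors of proteases and release them in zymogen granules. Islet beta cells make insulin from proinsulin in dense core granules, with prohormone convertases and carboxypeptidase E, and alpha, delta and PP cells make glucagon, somatostatin and pancreatic polypeptide. When insulin is lacking, tissues turn from glucose and fat synthesis to the burning of fatty acids, which pass into mitochondria as carnitine esters and are cut in steps of beta oxidation.

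The deposited values are log2 intensities. A difference of 1 on this scale is a doubling, and a level cannot be compared between probe sets. The array median lay between 6.64 and 6.68, the lowest values between 3.47 and 3.51 and the highest between 14.45 and 14.56. Correlations between arrays were 0.987 to 0.994 within HU, 0.990 to 0.995 within DU and 0.976 to 0.983 between the groups. Of 8 acinar markers, 6 were near the top of every array in both groups, such as Prss1, a trypsinogen, between 14.04 and 14.18 and Ctrb1, a chymotrypsinogen, between 14.39 and 14.47. The other 2 were Ptf1a, at 9.15 to 10.08, and Amy2a3, which was lower in DU animals. The liver and intestine markers Alb and Fabp2 were at 6.72 to 7.32 and 5.78 to 5.96. By the records of the arrays, HU3, DU1 and DU2 came from chip lot 1, HU1 and HU2 from lot 2 and DU3 from lot 3. DU and HU arrays were never scanned on the same day. Differences within chip lot 1 are those of the mean of DU1 and DU2 from HU3. In HU3 the summed linear intensity of 42 leukocyte genes was 17679, against 13171 and 10569 in HU1 and HU2 and 10963 to 15697 in DU. For 9 adipocyte genes it was 3153 in HU3, 1788 and 1536 in HU1 and HU2 and 1485 to 2305 in DU, and the part of these cells in the differences within lot 1 was not tested.

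Of 15866 probe sets tested with limma, 507 (3.2%) passed an adjusted p of 0.05 in DU vs. HU, and these are called changed below. In DU animals 233 were higher (1.47%) and 274 were lower (1.73%). Changes reached 18.5-fold upward and 68.3-fold downward, the latter in Amy1, whose DU level is near the floor of the arrays and limits the fold. Most calls were small, with a median of 1.45-fold for the higher and 1.48-fold for the lower probe sets. Over 2-fold changes were found in 34 higher and 44 lower probe sets. Probe sets of low, middle and high mean intensity, in equal parts, were called in 1.57%, 2.69% and 5.33% of cases. The called probe sets with exactly 1 gene symbol stood for 418 genes. For 67 of the 15866 (0.422%) the difference between diabetic and healthy rats was itself unlike that in tungstate-treated rats (interaction in limma, adjusted p under 0.05). All 507 had DU arrays that did not overlap the HU arrays, as did 29.4% of all probe sets. The number called was 214 without DU1, 251 without DU2, 257 without HU1, 296 without HU2 and 328 without HU3, and 85 of the higher and 92 of the lower probe sets stayed called whichever array was left out. With a block for chip lot it was 236, and with a block for scan day 34. The groups share no scan day. DU2 and DU3 were each alone on their day, and HU1 and HU2 shared a day only with each other. The fold change in that last model therefore rests on DU1 and HU3, joined through the tungstate-treated arrays.

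**Figure D1:**
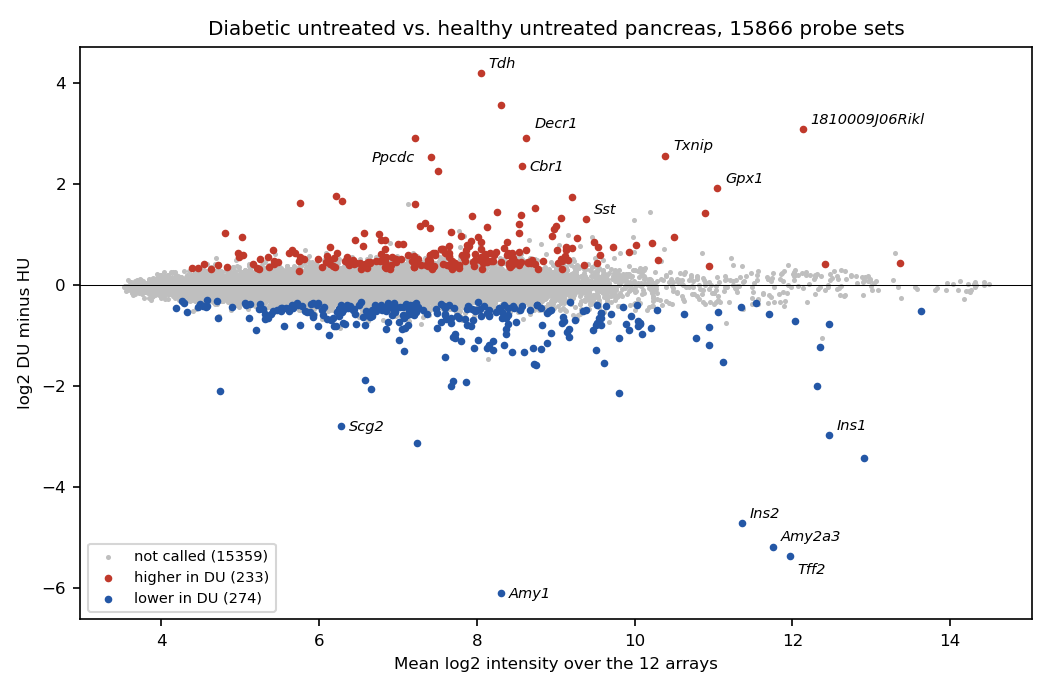
Each point is 1 of 15866 probe sets, with its mean log2 intensity over the 12 arrays on the x axis and the log2 difference of DU from HU on the y axis. The 233 probe sets called higher are red, the 274 called lower are blue, and the amylases, Tff2 and the insulins lie far below 0 while Tdh lies highest.

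The insulin genes, Iapp and Slc2a2 fell. Ins2, the rat ortholog of the human insulin gene, was at 13.26, 13.43 and 13.32 in the 3 HU arrays and at 8.84, 8.79 and 8.26 in the DU arrays. It fell 26.1-fold (log2 difference -4.71, standard error 0.31, adjusted p = 1.4e-06 by limma). Ins1, the second rat insulin gene, was at 13.68, 13.73 and 13.79 in HU and at 10.86, 11 and 10.44 in DU animals, a fall of 7.82-fold (adjusted p = 1.04e-05). The HU levels of both genes were close to the highest values of the arrays, where signals are compressed, and the 2 genes are near copies whose probes may share transcripts. Iapp, the amyloid peptide released with insulin, went from 10.61, 11.02 and 10.85 to 8.51, 8.80 and 8.78 (4.38-fold lower, adjusted p = 0.000702). Slc2a2 went from 7.28, 7.63 and 7.82 to 5.67, 5.95 and 5.48 (3.67-fold lower, adjusted p = 1.93e-05). In each of these 4 genes every DU array was below every HU array, as no called probe set had overlapping groups. The differences within chip lot 1 were -4.50, -2.86, -2.20 and -2.01 for Ins2, Ins1, Iapp and Slc2a2. In the model with a block for scan day, which rests on DU1 and HU3 and the tungstate-treated arrays, they were -2.84, -1.64, -0.58 and -1.85.

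The sequences before the starts of the 2 insulin genes are shown because the insulin genes fell most of the beta cell list. They are the 250 bases upstream of the start in RefSeq's GRCr8 build, on chromosome 1, with each match to GCCATCTG, an E element bound by basic helix-loop-helix factors such as Neurod1, in capitals. Ins1 lies on the plus strand at chr1:261185869-261186118 and holds 2 matches, and Ins2 lies on the minus strand at chr1:207273806-207274055 and holds 1.
Ins1: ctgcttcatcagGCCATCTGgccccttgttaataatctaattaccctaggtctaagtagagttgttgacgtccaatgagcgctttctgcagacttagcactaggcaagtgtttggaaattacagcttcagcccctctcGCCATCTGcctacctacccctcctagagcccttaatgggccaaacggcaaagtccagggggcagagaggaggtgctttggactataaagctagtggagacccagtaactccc
Ins2: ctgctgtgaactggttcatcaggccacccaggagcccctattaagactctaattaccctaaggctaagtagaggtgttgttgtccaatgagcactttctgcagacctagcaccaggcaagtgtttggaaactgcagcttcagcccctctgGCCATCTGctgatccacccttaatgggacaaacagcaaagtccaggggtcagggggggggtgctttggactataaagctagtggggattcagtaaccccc
These letters, on either strand, are in 334 of 33469 rat promoters of this length (0.998%). They are also in those of 11 other measured genes of the lists, among them Apoe, Bcat2, Eno1 and Calr. Of these 11, 0 were called, beside 3.58% of all genes, and so few genes cannot tell the shares apart. Neurod1 itself was at 6.74, 6.68 and 6.76 in HU and 6.18, 6.15 and 6.36 in DU animals (adjusted p = 0.0695), and Pdx1, another activator of the insulin genes, at 7.41, 7.26 and 7.37 and 6.95, 7.03 and 7.2 (adjusted p = 0.124).

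Of 18 measured genes of the beta cell list these 4 fell and none rose, beside 1.84% lower and 1.74% higher among all 10411 genes, each taken by its brightest probe set. The list had a median log2 difference of -0.23, against -0.02 over all probe sets, and 17 of its 18 genes lay below 0. Isl1 and Nkx6-1, transcription factors of endocrine cells, differed by -0.06 (95% interval -0.26 to 0.14) and -0.05 (-0.21 to 0.11). Abcc8, the sulfonylurea receptor of the beta cell potassium channel, was dim, at 4.81 to 5.04 in HU and 4.79 to 5.02 in DU animals. In whole tissue, fewer beta cells and less RNA per beta cell cannot be told apart.

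Part of the neuroendocrine granule genes fell too. Of 32 measured genes, 8 were lower and none higher in DU animals, beside 1.84% lower and 1.74% higher among all genes. In this list 26 genes lay below 0, and the median was -0.17, against -0.02 over all probe sets. Scg2, a granin of dense core granules, was at 7.41, 7.54 and 7.92 in HU and at 4.81, 4.88 and 4.83 in DU animals (6.88-fold lower, adjusted p = 0.000303). Cpe, the carboxypeptidase that trims prohormones, was at 8.82, 8.91 and 9.15 against 7.19, 7.05 and 6.89 (3.78-fold lower, adjusted p = 0.00178). Pcsk2, the convertase of proinsulin and proglucagon, fell 1.74-fold (adjusted p = 0.00122), and Pcsk1n and Scg5, which encode inhibitors or partners of the convertases, fell 1.81- and 1.80-fold (adjusted p = 0.00645 and 0.0294). Nnat and Resp18, small proteins of the endoplasmic reticulum, fell 2.11- and 2.14-fold, and Ptprn2, a granule membrane protein, fell 1.40-fold (adjusted p = 0.000938, 0.0123 and 0.0148). The number called was 5 without DU2 or HU3. For Cpe the log2 difference became 0.0294 in the model with a block for scan day, which rests on DU1 and HU3 and the tungstate-treated arrays. For Scg2 it became -0.79 there, against -2.78 without the block, while the median of the list was -0.15.

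Somatostatin moved the other way. Sst, the hormone of delta cells, was at 8.87, 8.92 and 8.90 in HU and at 9.84, 10.33 and 10.48 in DU animals. It rose 2.49-fold (log2 difference 1.32, standard error 0.28, adjusted p = 0.0217). Every DU array was above every HU array, as no called probe set had overlapping groups, but the call was lost without DU2, DU3, HU1, HU2 or HU3 (highest adjusted p 0.0819). Sst was the 1 gene called among 10 of other islet cells, beside 3.58% of all genes. So few genes cannot tell the shares apart. Gcg, the glucagon gene, was at 8.43, 8.54 and 8.65 in HU and 9.02, 8.56 and 8.36 in DU animals, so that the groups overlapped, with a difference of 0.11 (95% interval -0.52 to 0.74). Ppy, the pancreatic polypeptide gene, was at 9.27, 8.91 and 9.72 against 8.44, 8.83 and 8.90 (difference -0.58, -1.22 to 0.07).

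**Figure D2:**
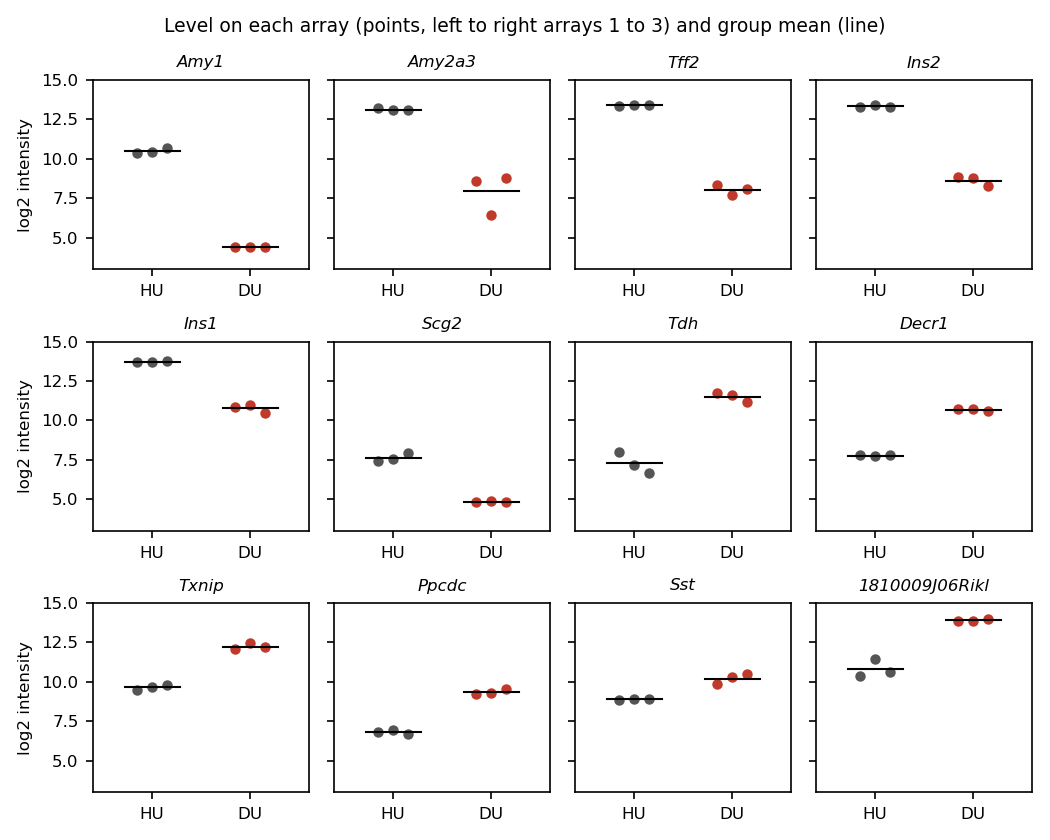
Log2 intensity (y axis) of 12 genes on the 3 HU arrays (grey) and the 3 DU arrays (red), with the group mean as a line. No DU point overlaps an HU point in these genes, as in every called probe set. Amy2a3 is lowest in DU2 (6.45), and Amy1 is at 4.41 to 4.45 in DU animals.

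The amylases were with Tff2 the 3 largest falls. Amy1, an amylase, was at 10.36, 10.47 and 10.72 in HU and at 4.45, 4.41 and 4.41 in DU animals, a fall of 68.3-fold (log2 difference -6.09, standard error 0.25, adjusted p = 8.17e-09). Its DU level is near the floor of the arrays, with 6.32% of probe sets below it, so that the fold is limited by background. Amy2a3, the pancreatic type, was at 13.20, 13.10 and 13.07 in HU and at 8.59, 6.45 and 8.78 in DU animals (36.3-fold lower, adjusted p = 1.04e-05). DU2 was the lowest of the DU arrays for Amy2a3 by more than 2 log2 units but not for Amy1. The record of DU2 is the only one that gives 7 hours of in vitro transcription and 6 µg of RNA. The amylase genes are close copies, and their probe sets may share transcripts.

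Other digestive enzymes did not follow the amylases. Of 20 measured, 2 fell, both of them amylases, and 2 rose (20.0% called, beside 3.58% of all genes), and the median was 0.02. The strongest rise was in a trypsinogen listed as 1810009J06Rikl, with the synonym Try4, at 10.35, 11.45 and 10.62 in HU and 13.85, 13.84 and 13.99 in DU animals (8.51-fold higher, adjusted p = 6.78e-06). Prss2, anionic trypsinogen, rose 1.37-fold (adjusted p = 0.0318), a call lost without DU1, DU2, HU1 or HU3 (highest adjusted p 0.125). Trypsinogens are a family of similar genes, so the signal of one probe set may come from several. The 14 genes at the top of the scale in both groups, Prss1 with lipases, colipase, elastases, carboxypeptidases, chymotrypsinogens and phospholipase A2, lay between 13.75 and 14.56 on every array and differed by -0.14 to 0.08, with 95% intervals reaching from -0.31 to 0.23. The arrays compress differences at such levels. Pnlip, pancreatic lipase, was at 14.41, 14.31 and 14.37 in HU and 14.37, 14.37 and 14.26 in DU animals, and Cpa1, carboxypeptidase A1, at 14.24, 14.31 and 14.19 and 14.28, 14.29 and 14.28. Dnase1, far from the top, was at 7.34 to 7.41 and 7.48 to 7.56 (adjusted p = 0.269).

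Among proteins of the zymogen granule and acinar identity, 5 of 22 measured genes fell (22.7%, beside 1.84% of all genes) and none rose. Tff2, a trefoil peptide of mucus and granules, was at 13.36, 13.41 and 13.44 in HU and at 8.32, 7.70 and 8.12 in DU animals (log2 difference -5.36, within chip lot 1 -5.43). Cuzd1, a zymogen granule membrane protein, went from 13.66, 13.68 and 13.72 to 13.17, 13.25 and 13.13 (1.42-fold lower, adjusted p = 0.00103), and Pdia2, the pancreatic disulfide isomerase, fell 1.78-fold (adjusted p = 0.000923). Foxa2, a transcription factor, fell 1.32-fold (adjusted p = 0.0408). Ptf1a, the factor that drives acinar genes, was at 9.15, 9.34 and 9.50 in HU and at 10.08, 9.97 and 9.66 in DU animals and did not pass the test (adjusted p = 0.0831). Bhlha15, the Mist1 factor of acinar cells, was at 8.80, 8.63 and 9.44 against 9.17, 8.81 and 8.88. Sctr, the secretin receptor, fell 2.13-fold, from 8.15, 8.39 and 8.41 to 6.92, 7.25 and 7.51. It was 1 of 26 receptor genes, of which the nuclear receptor Ppara also fell (7.69% called). Aqp8, an acinar water channel, fell 2.89-fold, from 10.13, 10.35 and 9.88 to 8.36, 8.66 and 8.75 (adjusted p = 0.000396).

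Some genes of protein folding were called. Of 59 measured genes of ER chaperones and the unfolded protein response 5 fell and 1 rose. This is 10.2% called, beside 3.58% of all genes. The median was -0.10 (-0.25 within chip lot 1, which rests on HU3). The median deviation of the list was 0.17 in HU3, -0.02 in HU1 and -0.11 in HU2, against -0.15, -0.06 and -0.07 in DU, so that HU2 lay below 2 of the DU arrays. Sel1l, the adaptor of the ER degradation complex, fell 2.05-fold, from 10.87, 10.93 and 11.18 to 9.99, 9.96 and 9.91 (adjusted p = 9.38e-05). Sdf2l1, an ER chaperone, fell 1.71-fold (adjusted p = 0.00176), and Ppib, a prolyl isomerase, fell 1.28-fold (adjusted p = 0.0499). Xbp1, the transcription factor of the unfolded protein response, was at 11.84, 11.81 and 11.74 in HU and 11.19, 11.17 and 11.34 in DU animals (1.48-fold lower, adjusted p = 0.00113). Dnajc3, a co-chaperone and inhibitor of the kinase Eif2ak3, rose 1.26-fold (adjusted p = 0.0312). Hspa5, the main ER chaperone, differed by -0.02 and Hsp90b1 by 0.18 (adjusted p = 0.974 and 0.642).

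The promoters of Xbp1 and Dnajc3 are shown because both hold the ER stress element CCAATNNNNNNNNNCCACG, the binding site of Xbp1 and Atf6 with the general factor NF-Y, and yet the genes moved in opposite directions. The element is in capitals, with 30 bases on each side, in GRCr8, at chr14:84604528-84604606 for Xbp1 and chr15:102432504-102432582 for Dnajc3, both on the plus strand. The element begins 65 bases before the start of Xbp1 and 133 bases before that of Dnajc3.
Xbp1: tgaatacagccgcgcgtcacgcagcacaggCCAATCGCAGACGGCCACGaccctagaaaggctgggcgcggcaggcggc
Dnajc3: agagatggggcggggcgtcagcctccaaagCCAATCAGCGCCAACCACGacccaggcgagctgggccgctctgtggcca
On either strand these letters are in 22 of 33469 promoters (0.0657%). Of the measured genes of the ER list, Hspa5, Hsp90b1, Calr, Canx, Creld2 and Ero1b hold it too. None of these 6 was called, with Calr at -0.43 (adjusted p = 0.138) the furthest from 0. Since 3.58% of all genes were called, so few genes cannot set the element apart.

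Many genes that burn fatty acids rose. Of the 42 measured for fatty acid oxidation and ketogenesis, 17 rose and 1 fell in DU animals, which is 42.9% called beside 3.58% of all genes by their brightest probe set. The list was chosen with earlier results of these data known, which may raise this share. The median was 0.28 and within chip lot 1 it was 0.18. All 17 higher genes differed by more than 0.4 within chip lot 1, whose arrays are part of the same comparison. Of the 18 called, 13 stayed called on leaving out any 1 array, 10 were called with the chip lot as a block, 6 within chip lot 1 alone and 1, Decr1, with a block for scan day.

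The steps of mitochondrial beta oxidation stood out in size. Decr1, the dienoyl-CoA reductase for unsaturated fatty acids, was at 7.79, 7.73 and 7.79 in HU and at 10.70, 10.75 and 10.61 in DU animals (7.54-fold higher, adjusted p = 8.92e-08). Ech1 and Eci1, isomerases for unsaturated fatty acids, rose 3.36-fold (from 8.71, 8.95 and 8.83 to 10.50, 10.55 and 10.70) and 1.56-fold (adjusted p = 0.0378). Among the dehydrogenases of the first step, Acadl for long chains went from 6.71, 6.74 and 6.78 to 8.36, 8.48 and 8.21 (3.05-fold, adjusted p = 1.24e-06), and Acadm for medium chains rose 1.56-fold (adjusted p = 0.00954). Acads for short chains and Acadvl for very long chains differed by 0.20 and 0.24 and were not called (adjusted p = 0.193 and 0.171). Hadh, which acts on short chains, rose 2.53-fold, and Hadha and Hadhb, the subunits of the trifunctional protein, rose 1.97- and 2.17-fold. Acaa2, the last thiolase, rose 1.73-fold (adjusted p = 0.00632). Etfa, Etfb and Etfdh, which pass the electrons to the respiratory chain, rose 1.71-, 1.82- and 1.64-fold.

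The entry and control of fatty acids were mixed. Cpt1a, the carnitine transferase of the outer membrane, rose by both of its probe sets but unequally, 1.40-fold by the brighter (from 8.13, 8.08 and 7.93 to 8.35, 8.52 and 8.71) and 4.82-fold by the other (from 6.73, 6.90 and 6.68 to 8.86, 9.18 and 9.08). Cpt2, the transferase of the inner membrane, differed by 0.24 (95% interval 0.08 to 0.40, adjusted p = 0.0974). Ehhadh and Hsd17b4, bifunctional enzymes of peroxisomes, rose 2.07- and 1.57-fold. Pdk4, the kinase that shuts pyruvate dehydrogenase, rose 1.86-fold (adjusted p = 0.0183), and Angptl4, a secreted inhibitor of lipoprotein lipase, rose 3.11-fold, from 5.39, 5.24 and 5.44 to 6.75, 6.83 and 7.39. Ppara, the nuclear receptor that activates many of these genes, was 1.40-fold lower, from 6.65, 6.6 and 6.45 to 6.04, 6.01 and 6.21 (adjusted p = 0.0075). Oxct1, the enzyme of ketone use, was at 6.74, 6.64 and 6.74 in HU and 6.18, 5.94 and 6.13 in DU animals (adjusted p = 0.0563).

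**Figure D3:**
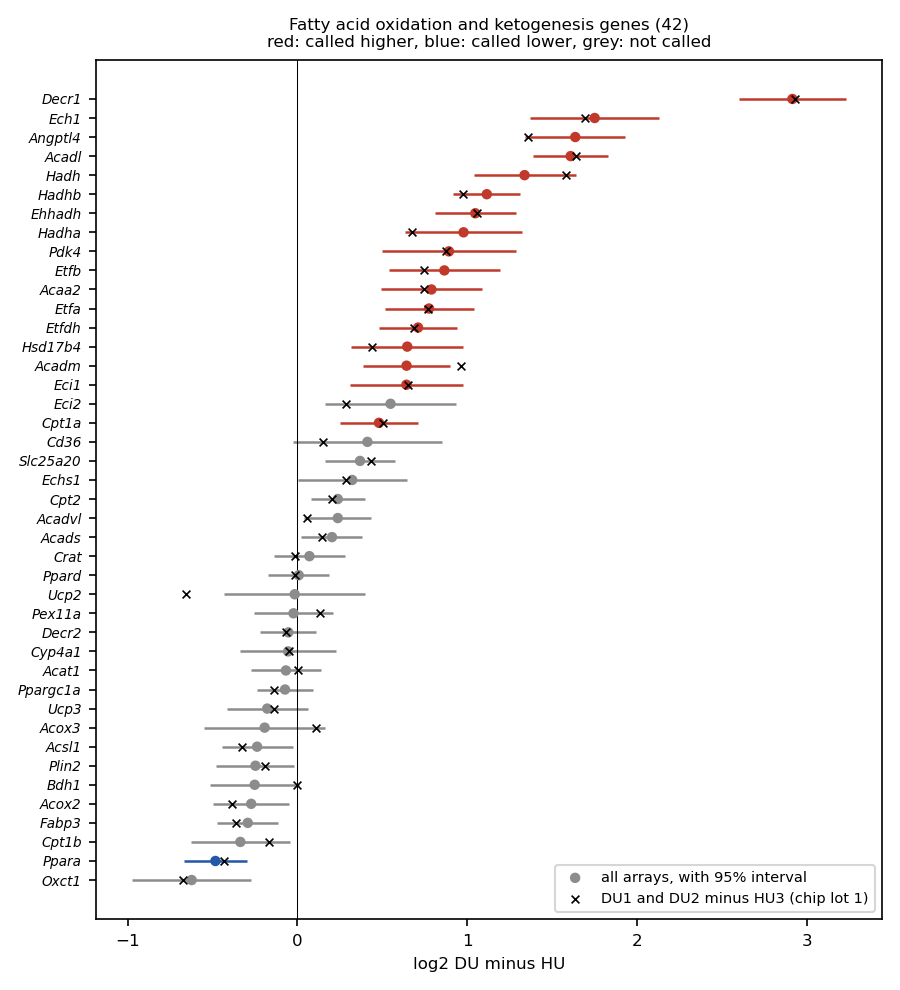
Log2 difference of DU from HU (x axis) for the 42 genes of fatty acid oxidation and ketogenesis, with the 95% interval as a line and the difference within chip lot 1 as a cross. Decr1 is highest at 2.91, 17 genes are called higher (red) and Ppara is the 1 called lower (blue).

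Some genes of fat synthesis fell. Of 31 measured genes 7 fell (22.6%, beside 1.84% of all genes) and none rose, and the median was -0.07. HU3 stood apart for this list. The median deviation of its genes was 0.18 in HU3, -0.03 in HU1 and -0.11 in HU2, against -0.10, -0.04 and -0.06 in DU, so that HU2 lay below all DU arrays. The summed adipocyte level was likewise highest in HU3 and low in HU2 (3153 and 1536), and its part in these falls was not tested. Lcat, which esterifies cholesterol, went from 7.93, 8.98 and 8.76 to 6.23, 6.49 and 6.95, with a log2 difference of -2.0. Dgat2, the last enzyme of triglyceride synthesis, was at 8.54, 8.32 and 8.82 against 7.31, 7.46 and 7.17, and Thrsp, a protein of lipogenic tissue, at 8.15, 7.38 and 8.46 against 7.0, 7.05 and 6.64 (2.14-fold lower, adjusted p = 0.0268). The desaturases fell together, Fads2 1.80-fold, Fads1 1.65-fold (adjusted p = 0.0276), Scd 1.6-fold (adjusted p = 0.0457) and Scd2 1.40-fold (adjusted p = 0.0459). Acaca, acetyl-CoA carboxylase, differed by 0.31 (95% interval 0.04 to 0.58, adjusted p = 0.195) and Srebf1 by 0.03. The number called was 3 without DU1, DU2, DU3 or HU1 and 4 without HU3. None of 23 genes of cholesterol synthesis and uptake was called.

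Coenzyme A and glucose metabolism changed in a few enzymes. Ppcdc, the decarboxylase of coenzyme A synthesis, was at 6.83, 6.96 and 6.69 in HU and at 9.22, 9.33 and 9.58 in DU animals. Vnn1, a pantetheinase, rose 1.95-fold (adjusted p = 0.00046). They were the 2 called of 15 genes (13.3%, beside 3.58% of all genes). Fbp1 and Fbp2, the fructose bisphosphatases, were at 7.26, 7.29 and 6.78 against 8.24, 8.42 and 8.11 and at 8.18, 8.36 and 8.24 against 9.89, 9.53 and 9.52. Pygl, glycogen phosphorylase, fell 1.51-fold (adjusted p = 0.0364) and Pgd, of the pentose phosphate path, 1.36-fold (adjusted p = 0.0399). With Pdk4 this makes 3 higher and 2 lower of 49 genes of glucose metabolism (10.2% called), with a median of -0.02. Txnip, which is induced by glucose and binds thioredoxin, was at 9.51, 9.68 and 9.80 in HU and 12.08, 12.45 and 12.19 in DU animals. Of 17 genes of the glucose-responsive and thioredoxin list it rose with Nupr1 while Slc2a2 fell (17.6% called). None of 22 genes of the tricarboxylic acid cycle was called, and of 70 respiratory chain genes Atp5pb and Ndufs3 rose and Ndufa13 fell (4.29%).

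Amino acid enzymes held the largest rise. Tdh, threonine dehydrogenase, was at 8.0, 7.18 and 6.68 in HU and at 11.71, 11.59 and 11.18 in DU animals, so that DU lay far above HU although the HU arrays were spread. Mat1a and Ahcy, successive enzymes of the methionine cycle, rose 2.27- and 1.95-fold (adjusted p = 0.00495 and 0.00107). Aass, of lysine breakdown, fell 1.52-fold (adjusted p = 0.0312) and Asl, of arginine synthesis, 1.28-fold (adjusted p = 0.0377). These are 3 higher and 2 lower of 61 (8.20% called, beside 3.58% of all genes), with a median of -0.03. Impa2 and Isyna1, which release and make inositol, rose 3.42- and 1.55-fold (adjusted p = 4.49e-05 and 0.00954). They were the 2 called of 22 genes of inositol metabolism (9.09%).

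Antioxidant genes went both ways. Gpx1, glutathione peroxidase, was at 10.23, 9.52 and 9.92 in HU and at 11.88, 11.65 and 11.91 in DU animals. Gstk1, a mitochondrial glutathione transferase, rose 1.93-fold (adjusted p = 0.000841), Glrx, glutaredoxin, 1.42-fold (adjusted p = 0.0245) and Hmox2, a heme oxygenase, 1.31-fold (adjusted p = 0.0327), whereas Gstp1 fell 1.96-fold (adjusted p = 0.000622). This is 4 higher and 1 lower of 46 (10.9% called, beside 3.58% of all genes), with a median of 0.04. Of 31 carbonyl and aldehyde enzymes 16.1% were called. Cbr1 was the 1 that rose, from 7.95, 7.88 and 7.94 to 9.90, 10.34 and 10.61. Aldh1a1, which makes retinoic acid, fell 2.43-fold (adjusted p = 8.42e-05), Aldh2 1.54-fold (adjusted p = 0.0071), Dcxr 1.36-fold (adjusted p = 0.0459) and Adh4 1.36-fold (adjusted p = 0.0163).

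**Figure D4:**
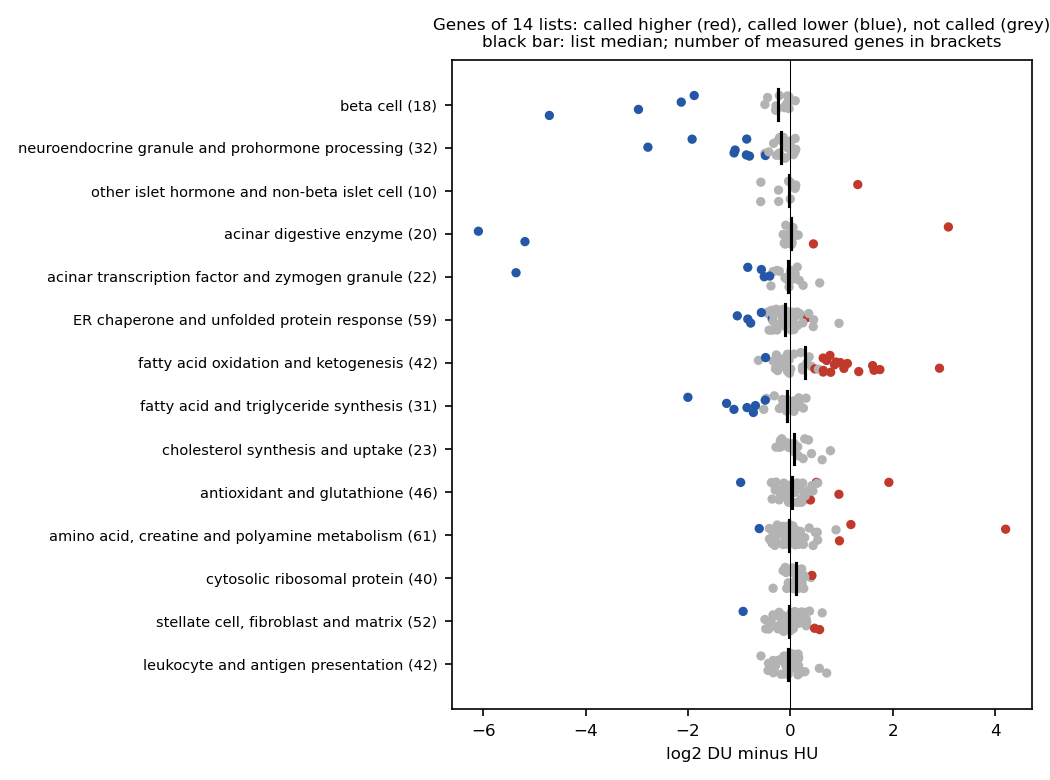
Each point is a gene of 1 of 14 lists, placed by its log2 difference of DU from HU (x axis), with called genes in red (higher) or blue (lower) and the list median as a black bar. Fatty acid oxidation lies to the right with a median of 0.28, and the beta cell and neuroendocrine lists lie to the left with medians of -0.23 and -0.17.

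Genes of injury, matrix and leukocytes did not stand apart from all genes in the share called. It was 3.57% of the injury list, 5.77% of the matrix list and 0% of the leukocyte list, beside 3.58% of all genes. Lists of this size cannot tell these shares apart. Nupr1, a stress protein of the injured pancreas, rose 2.71-fold, from 10.50, 10.24 and 10.07 to 11.74, 11.66 and 11.73 (adjusted p = 0.000967), as the 1 called of 28 Reg and injury genes. Reg3b, an antibacterial lectin of acinar cells, spread from 8.86 to 13.29 within HU and from 9.24 to 13.82 within DU animals, and its 95% interval, -1.24 to 3.82, was too wide to exclude a large change either way. Of 52 matrix and fibroblast genes Fbln2 rose 1.49-fold and Nid2 1.39-fold, both of them matrix proteins, and Timp2, an inhibitor of metalloproteinases, fell 1.89-fold by 1 of its 2 probe sets (adjusted p = 0.00726, 0.0321 and 0.0157). Col1a1, the main fibrillar collagen, was at 8.34, 8.34 and 8.41 in HU and 8.32, 8.20 and 8.16 in DU animals. None of 42 leukocyte, 16 endothelial, 9 adipocyte or 12 nerve genes was called, and 11 of the 12 nerve genes lay below 0, with a median of -0.17. The median of the leukocyte list was -0.04, -0.13 within chip lot 1 and 0.40 with a block for scan day. Of the HU arrays, only HU3 enters these latter differences. Hbb, the beta globin of blood, was at 11.21, 11.28 and 12.18 in HU and 10.60, 10.44 and 10.07 in DU animals (2.28-fold lower, adjusted p = 0.0364).

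Signalling, growth and housekeeping lists had from 0% to 2.94% of their genes called, beside 3.58% of all genes. Of 39 cell cycle genes Mcm4 was called (1.27-fold lower), of 40 of insulin and IGF signalling Enpp1 (1.42-fold lower), of 34 of the Erk pathway and immediate early response Myc (1.56-fold higher, from 7.38, 7.36 and 7.44 to 8.51, 7.86 and 7.74) and of 39 of the integrated stress response Lars1 (1.38-fold lower). Of 40 cytosolic ribosomal protein genes Rpl26 was called (1.34-fold higher), of 68 of secretory traffic Gosr1, and of 41 proteasome genes and 17 metallothionein and zinc transport genes none. Rpl7, by a probe set that does not enter the ribosomal list, fell 2.37-fold, from 8.77, 8.54 and 8.53 to 7.26, 7.34 and 7.50 (adjusted p = 0.0236). The list of 25 plasma-type protease inhibitors and acute phase genes lay outside the range of 0% to 2.94%. Of these genes 2 rose and 1 fell, a larger share than the 3.58% called among all genes. This difference in share was not tested. Cp, ceruloplasmin, rose 1.65-fold by 1 of its 3 probe sets, and C3, complement component 3, rose 1.32-fold. Mug1, murinoglobulin, fell 4.27-fold, from 6.39, 5.62 and 6.68 to 3.98, 4.14 and 4.28. Its fold is limited by background, since its DU level is below that of Amy1. Of the 9 genes that the study rechecked by PCR, controls included, 5 were called, Xbp1, Sel1l, Ins2 and Amy2a3 with the values above and Sostdc1. Tgfb3 differed by -0.39 (adjusted p = 0.102), Fgf13 by -0.58 (0.149), Tspan8 by -0.20 (0.408) and Pebp1, an inhibitor of Raf-1, by 0.30 (0.0915), and none of these 4 passed. By PCR the study reported Tspan8 as unchanged, Pebp1 as higher and the other rechecked genes as lower in DU than in HU animals. Sostdc1, a BMP antagonist, fell 1.5-fold (adjusted p = 0.025).

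The 15 largest rises hold 3 more genes. C8h15orf39, of unknown function, rose 7.54-fold, from 6.34, 6.38 and 6.67 to 9.27, 8.96 and 9.89 (adjusted p = 0.000923). Sin3b, a corepressor scaffold, rose 2.90-fold by 1 probe set (from 8.28, 8.23 and 8.30 to 9.83, 9.83 and 9.76) and did not pass by the other (difference 0.50, adjusted p = 0.152). Tp53i11, a p53-induced gene, was at 5.80, 5.83 and 5.81 in HU and at 6.97, 6.96 and 8.51 in DU animals, so that DU3 raised its fold to 3.17 (adjusted p = 0.00734, difference within chip lot 1 of 1.15).

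The 15 largest falls hold 3 more. Gosr1, a Golgi SNARE protein, fell 4.16-fold by 1 probe set, from 8.01, 7.52 and 7.70 to 5.71, 5.81 and 5.53 (adjusted p = 0.0312), but the other differed by 0.11 (adjusted p = 0.43), and the call was lost with a block for chip lot (adjusted p = 0.143) and without any 1 of the 6 arrays (highest adjusted p 0.108). Gde1, a glycerophosphodiesterase, fell 2.99-fold, from 9.17, 9.19 and 9.41 to 7.79, 7.82 and 7.43 (adjusted p = 1.04e-05). Cd24, a surface glycoprotein, was at 9.08, 9.33 and 9.31 in HU and 7.31, 7.46 and 8.26 in DU animals (2.95-fold lower, adjusted p = 0.001).

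Past the 15th rank the changes were from 2.75- to 1.82-fold for the next 25 rises and from 2.88- to 1.89-fold for the next 25 falls, and the genes named here were chosen after their values were seen. Ndrg2, a differentiation-related gene, went from 7.65, 7.60 and 8.0 to 9.19, 9.29 and 9.14. Dbi, the acyl-CoA binding protein, rose 2.58-fold (adjusted p = 0.00122), and Retsat, which saturates retinol, rose 2.33-fold (adjusted p = 0.00358). Ang, the ribonuclease angiogenin, fell from 11.47, 11.53 and 11.90 to 10.17, 10.26 and 9.89. Man2b1, Fuca2 and Aga, enzymes that break down glycoproteins, fell 2.38-, 1.95- and 2.06-fold (adjusted p = 4.92e-05, 0.00025 and 0.000867). Proc, the anticoagulant protein C, fell 2.47-fold, and Qsox1, which makes disulfide bonds, 2.21-fold. Sox4, a transcription factor of islet development, was at 8.01, 8.06 and 8.09 in HU and at 7.03 in each DU array to within 0.01.

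The differences within chip lot 1 use 3 of the same 6 arrays, on probe sets called over all of them, so that a like size is partly built in. Since none of the 507 probe sets had overlapping groups, every one kept its sign there by construction, and 80.0% of all probe sets did. The median difference within the lot was 0.54 for the higher probe sets, against 0.53 over all arrays, and -0.63 for the lower, against -0.56. In limma fitted to the arrays of lot 1, where HU3 is assumed to vary like the others, 155 probe sets were called, 105 of them among the 507. Of the 233 higher probe sets 34 were called there, and of the 274 lower 71. Tdh, Decr1, Ppcdc and Cbr1 rose there by 4.97, 2.93, 2.58 and 2.18 (adjusted p = 9.89e-06, 0.0059, 0.00125 and 0.0059).

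**Figure D5:**
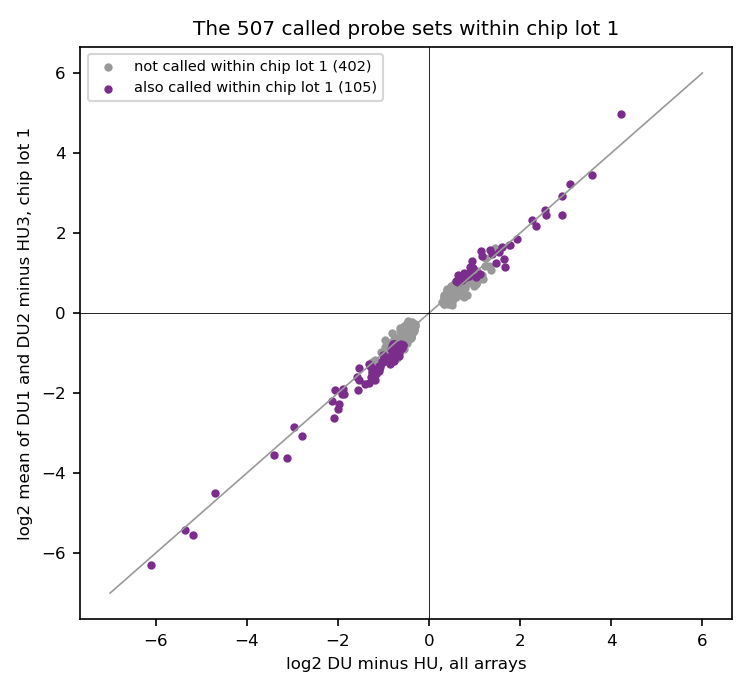
For the 507 called probe sets, the log2 difference of DU from HU over all arrays (x axis) and the difference of the mean of DU1 and DU2 from HU3 within chip lot 1 (y axis), with equality as a line. The 105 probe sets also called within chip lot 1 are purple, and all points lie in the quadrants of equal sign.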

How the data were processed

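Total RNA of whole rat pancreas was hybridized to 12 Affymetrix RAE230-A arrays, 3 in each of 4 groups, each with a pool of 3 rats. The authors processed the scans with RMA (background adjustment, normalization and summary per probe set, affy package), and the deposited values are log2 intensities, used as they stand. Arrays have no read depth, and their number limits the precision. The 57 control probe sets among 15923 were not tested. Of those tested, 12783 carried 1 gene symbol in the platform annotation, 312 several and 2771 none. The array records gave chip lots and scan days, which are coded here by number.

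A mean for each group was fitted over all 12 arrays with limma 3.58.1 in R 4.3.3, without a block, and the contrast DU minus HU was tested with the moderated test and Benjamini-Hochberg adjustment over 15866 probe sets. A call is an adjusted p under 0.05. This replaces the B-statistic above 0 of the authors' methods, which gave 288 probe sets (1.82%). A gene entered a list once, by the probe set with the highest mean over the 12 arrays. The genes named are the 15 strongest rises and the 15 strongest falls among calls with 1 symbol and groups that do not overlap, up to 4 called genes of each list, the insulins and the genes the study checked by PCR; others are named for counts. The members and the 35 lists were chosen with earlier results of these data known. Lists are described by counts and medians, with no set test. Simulated arrays were used to test the fit. Promoters are RefSeq's, build GRCr8, and motifs were searched on both strands. Samples that share a number did not deviate together (correlations of -0.15, 0.02 and -0.19), so no pairing was used. The alternatives were quantile normalization again, median centring, no dim probe sets, only the 6 arrays, trend and robust variance, the chip lot, scan day or replicate number as a block, other criteria, the mean over a gene's probe sets, and leaving out each array.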

Additional observations from a re-analysis of the deposited data

Results flagged for a closer look

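For 16 of the 30 genes with the largest changes, the effect of diabetes differed between untreated rats and rats on tungstate (interaction in limma, DU minus HU less the difference of the diabetic and healthy treated groups, DT minus HT, adjusted p under 0.05). Over all 15866 probe sets 67 passed (0.422%). The 30 genes were chosen for their DU minus HU difference, which is part of the interaction, so that the choice favours the count. Among the rises this difference was 4.58 for Tdh (adjusted p = 6.65e-05), where DT minus HT was -0.37, 2.56 for Ppcdc, 2.27 for Decr1, 2.21 for Txnip and 2.16 for Cbr1. It was 1.75 for Angptl4, 1.56 for Impa2, 1.56 for Ech1, 1.24 for Acadl and 1.15 for Sin3b. Among the falls it was -5.15 for Amy2a3, where DT minus HT was -0.04, -4.95 for Tff2 and -4.58 for Amy1, where DT minus HT was -1.51. It was -1.62 for Mug1 (adjusted p = 0.0259), -1.53 for Cd24 (0.0427) and -1.32 for Aqp8 (0.0434). For the insulin genes Ins2 and Ins1 the difference was -1.41 and -0.85 and did not pass (adjusted p = 0.319 and 0.483).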

How the results depend on the processing

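The 507 calls (233 higher, 274 lower) became 236 (97 and 139, 198 of them among the 507) with a block for chip lot, 155 (40 and 115) in chip lot 1 alone, 34 (19 and 15) with a block for scan day, and 288 (137 and 151) at a B-statistic above 0. Leaving out 1 array gave 214 to 367, 105 to 174 higher and 109 to 193 lower. With other normalization, variance, filter or random block, or in the 6 arrays alone, the count was 365 to 666. With the chip lot as a block 10 genes of fatty acid oxidation, 4 of fat synthesis and 5 of the neuroendocrine list were called, and in chip lot 1 alone 6 of fatty acid oxidation. With a block for scan day these were 1, 0 and 0, with 1 beta cell and 2 digestive enzyme genes. On leaving out 1 array, 5 to 8 neuroendocrine, 3 to 7 fat synthesis, 14 to 16 fatty acid oxidation, 3 to 4 digestive enzyme and 4 beta cell genes were called. Of the 79 probe sets of named genes, 1 reversed, Cpe, from -1.92 to a log2 difference of 0.0294 with a block for scan day, where 60 others moved from called to not called, against 21 with the chip lot as a block and 32 in chip lot 1. Chip lot 1 holds fewer arrays, and the scan day model takes the difference from DU1 and HU3 through the tungstate-treated arrays. The cause of these losses was not tested. A replicate block gave 565 calls, 459 of them among the 507. Amy1 in DU animals is limited by background, and the digestive enzymes and insulins in HU by the top of the scale. Pools hide the spread between rats.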
